A study of Mus musculus with 8 samples.

Results

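The cornified envelope and terminal differentiation genes are a list of 41 mouse genes whose products build, cross-link or shed the dead outer layer of stratified epithelium. They were chosen by name: the small proline-rich (Sprr) genes, other envelope precursors, proteins fused to an S100 domain, plakins, secreted suprabasal proteins, adhesion proteins, calmodulin-like proteins, and the proteases and inhibitors of shedding. Of the 41 genes, 40 had a row among the 24907 genes of the table and Flg was not analysed here. Counts were found for 37 of them, and Sprr2d, Sprr2e and Sprr3 had none in any library. The filter on low counts kept 28 members for testing, among 12538 genes.

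The data are 8 RNA-seq libraries of ASZ001, a cell line from mouse basal cell carcinoma, in 4 groups of 2. Control cells had a non-silencing shRNA and are called NS. Knockdown cells, KD in the names of groups, had one that targets the TGF-beta receptor gene Tgfbr1. Each kind of cell was given either DMSO or Dox together with 4OHT, and the labels of the latter carry the name RasV12, an activated form of Ras. There was no group with Dox and 4OHT but without RasV12, so drugs and Ras cannot be told apart, and Dox-4OHT stands for both. The series concerns how basal cell carcinoma becomes squamous cell carcinoma, by its title.

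As keratinocytes leave the basal layer they begin to make a protein shell beneath the plasma membrane. Periplakin and envoplakin form its first scaffold, involucrin and the small proline-rich proteins are cross-linked to it by transglutaminases, and loricrin makes up much of the finished wall. Kallikreins and other proteases then process the proteins that hold the outermost cells together, under control of inhibitors that the same cells secrete. Basal cell carcinomas keep a basal or follicular character, whereas keratinising squamous cell carcinomas make many of these proteins.

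Library totals ran from 12724604.5 to 16233379 counts. Levels are given as CPM, counts scaled to a common library size with TMM factors, and differences as log2 changes with the standard error of the fitted model. In the label checks Tgfbr1 was at 77.1 to 104 CPM in the 4 NS libraries and at 8.08 to 10.2 CPM in the 4 knockdown libraries. Esr1, whose ligand-binding domain is commonly used to make proteins depend on 4OHT, was at 14.1 to 22.8 CPM under DMSO and at 3451 to 3987 CPM under Dox-4OHT. All 8 epithelial markers, such as Krt5, Krt14 and Cdh1, were present in every group. Their summed level was 30356 to 30554 CPM in NS DMSO libraries, 20102 to 21060 CPM in KD DMSO libraries, 15976 to 16337 CPM in NS Dox-4OHT libraries and 15825 to 16452 CPM in KD Dox-4OHT libraries. That sum was mostly Krt5, Krt14 and Col17a1. In KD DMSO libraries these and Itgb4 were below their NS DMSO levels, whereas Trp63, Cdh1, Epcam and Itga6 were above them. Cdh1 was at 503 and 487 CPM in NS DMSO libraries and at 553 and 552 CPM in KD DMSO libraries. The fibroblast markers Col3a1 and Lum, the immune markers Cd3e and Lyz2, and the melanocyte markers Mlana, Dct and Tyr were at 0 in all 8 libraries. Summed over the list, fibroblast markers were at 1.11 to 4.10, immune markers at 4.51 to 15.5, melanocyte markers at 3.37 to 6.25 and endothelial markers, nearly all Pecam1, at 22.5 to 37.0 CPM over the libraries. The part of these marker levels in the results was not tested. Whether the replicates of a group are separate cultures is not stated in the labels. The p-values therefore reflect no more than the variation among these 8 samples, and that variation may be technical. In these bulk libraries a larger number of differentiating cells and more RNA per cell cannot be told apart.

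Of the 41 members, 22 lie on chromosome 3 and 9 on chromosome 7 of GRCm38. RefSeq promoter windows (GRCm38.p6, 250 bases before to 50 bases after the start) matched 34 of the 41 members. The 160 bases before the start are shown for 5 members with large rises on knockdown, all of which hold both motifs marked below. They are also shown for Sbsn and Dmkn, which lie near Krtdap and fell under DMSO, and for Asprv1, which rose and holds neither motif. Asprv1 is not the only such member: Calm4, Cnfn, Klk7 and Cdsn, which also had large rises, hold neither motif in their windows. Klk8, Klk10 and Lypd3, which rose by less, hold neither as well, and none of these is shown. Capitals mark TGANTCA, the letters of an AP-1 site, and TATAAA, the TATA box, on the strand of the gene.
Sprr1a, chr3:92485882-92486041, minus strand: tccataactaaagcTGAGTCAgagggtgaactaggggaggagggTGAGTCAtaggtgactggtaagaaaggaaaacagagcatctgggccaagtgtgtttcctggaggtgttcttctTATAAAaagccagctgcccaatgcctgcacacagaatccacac
Sprr1b, chr3:92438780-92438939, minus strand: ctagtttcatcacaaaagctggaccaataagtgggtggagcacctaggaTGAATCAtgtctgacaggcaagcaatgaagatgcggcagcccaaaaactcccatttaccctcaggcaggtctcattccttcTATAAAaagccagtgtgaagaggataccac
Lor, chr3:92083143-92083302, minus strand: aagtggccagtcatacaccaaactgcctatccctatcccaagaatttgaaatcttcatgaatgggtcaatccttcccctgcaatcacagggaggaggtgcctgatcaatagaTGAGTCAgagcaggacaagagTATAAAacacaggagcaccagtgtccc
Rptn, chr3:93393539-93393698, plus strand: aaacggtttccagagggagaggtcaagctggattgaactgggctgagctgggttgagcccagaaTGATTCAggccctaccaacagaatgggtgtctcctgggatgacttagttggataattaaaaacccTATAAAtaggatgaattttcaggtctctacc
Krtdap, chr7:30787745-30787904, plus strand: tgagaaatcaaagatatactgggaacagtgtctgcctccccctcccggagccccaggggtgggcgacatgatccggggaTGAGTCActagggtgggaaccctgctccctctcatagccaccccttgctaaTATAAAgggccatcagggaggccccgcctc
Sbsn, chr7:30751311-30751470, plus strand: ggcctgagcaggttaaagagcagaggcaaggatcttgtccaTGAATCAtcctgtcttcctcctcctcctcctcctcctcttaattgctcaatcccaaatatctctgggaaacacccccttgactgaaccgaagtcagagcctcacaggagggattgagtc
Dmkn, chr7:30763596-30763755, plus strand: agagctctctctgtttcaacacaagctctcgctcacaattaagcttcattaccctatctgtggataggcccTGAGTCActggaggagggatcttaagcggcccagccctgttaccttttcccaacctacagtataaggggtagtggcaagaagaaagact
Asprv1, chr6:86628014-86628173, plus strand: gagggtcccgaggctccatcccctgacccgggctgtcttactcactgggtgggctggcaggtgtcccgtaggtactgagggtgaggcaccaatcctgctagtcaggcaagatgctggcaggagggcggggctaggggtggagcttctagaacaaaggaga
Sprr1a, which codes for a small proline-rich envelope precursor, holds 2 matches to TGANTCA in these bases, and Sprr1b, of the same cluster, holds 1. The TATA box letters are present in Sprr1a, Sprr1b, Lor, Rptn and Krtdap and are not found in Sbsn, Dmkn or Asprv1. TGANTCA reads the same way on both strands, and it was found in 18 of 34 member windows (52.9%) against 8.97% of 27025 genes. By the call on knockdown under DMSO described below, it was held by 7 of 15 members that rose, 3 of 5 that fell, 0 of 2 with no call and 8 of 12 that were not tested. TATAAA, on either strand, was in 16 of 34 members (47.1%) against 15.7% of genes. By the same call it was held by 7 of 15 members that rose, 0 of 5 that fell, 0 of 2 with no call and 9 of 12 that were not tested. The KLF letters CCACCC were in 18 of 34 members against 34.0% of genes. Of the ETS letters, CAGGAA was in 14 (41.2%) against 33.4%, and CCGGAA in 1 (2.94%) against 16.7%. These are matches of letters in a window, neighbouring members may share sequence, and nothing was measured on binding.

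**Figure D1:**
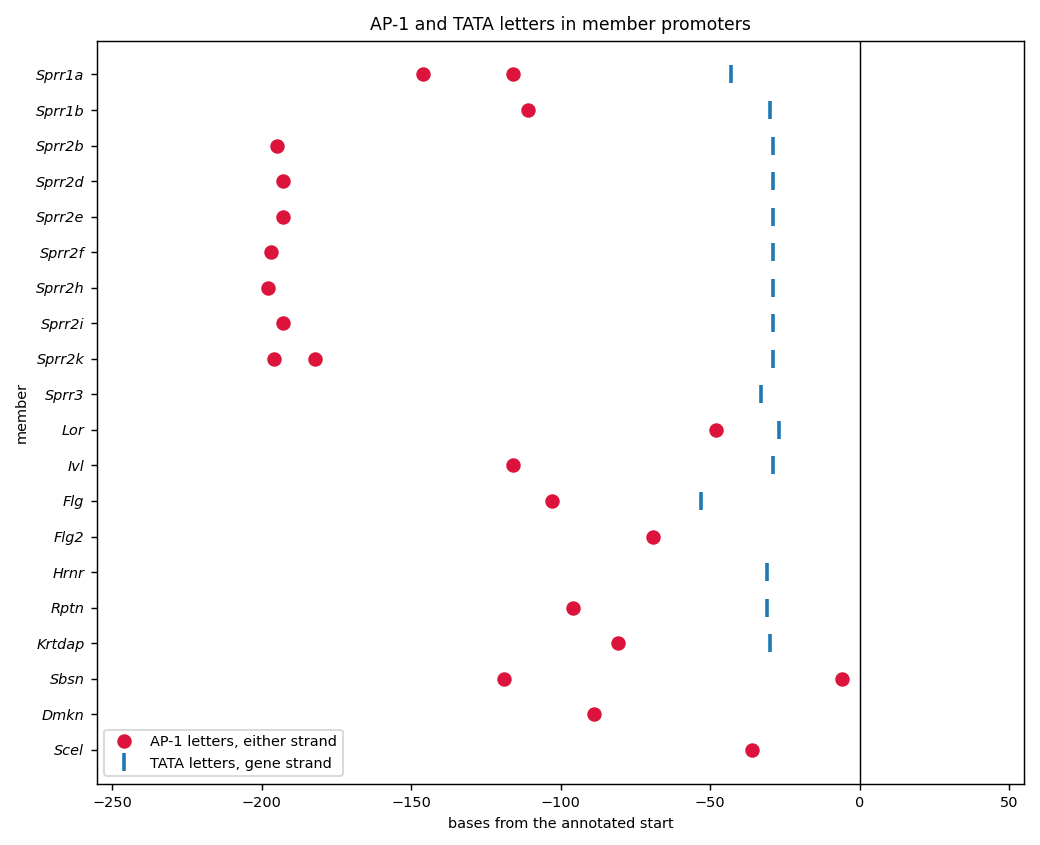
Positions of the letters searched in the promoter windows, as distance from the start of the gene in bases (horizontal axis), with 1 line for each member whose window holds TGANTCA on either strand (circles) or TATAAA on the strand of the gene (bars). Matches to TGANTCA within the bases printed above lie between positions −146 and −48, and Sbsn has another that spans its start.

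The first question is how these genes differ between KD DMSO and NS DMSO libraries. Of the 28 tested members 19 were higher and 7 lower in knockdown cells at an adjusted p of 0.05 (edgeR's quasi-likelihood test, Benjamini-Hochberg). Over all genes tested, 30.9% were called higher and 31.0% lower. The members' median log2 change was 1.68, also with the member lacking counts in NS cells put at its bound, against 0.00 over all genes. Sprr1b, Lor, Rptn, Crct1 and Asprv1 were among the 19 that rose. The 7 that fell were Tchh, Sbsn, Dmkn, Casp14, Calml3, Spink5 and Scel. Both Sprr2a rows had no call. Some members, such as Crct1, Krtdap, Cnfn, Calm4 and Klk7, had at most 4 whole counts over the NS DMSO libraries. Sprr2h, Ivl, Rptn and Klk10 had 14, 16, 16 and 22 whole counts over the same libraries. All of these members passed the filter on low counts through the knockdown libraries and could hardly be called lower. Casp14 passed through the NS DMSO libraries alone. The counts called and the medians for knockdown against NS cells, here and below, include these members, whose direction was set by the filter.

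Under Dox-4OHT 22 members were higher and 0 lower in knockdown cells, against 30.5% and 29.7% of all genes. With DESeq2 0 members were lower as well, with 5607 of 13674 genes called in either direction. Before adjustment edgeR put 1 lower member, Calml3, under 0.05. The median log2 change was 1.72, or 1.78 with the members at 0 counts put at their bounds and Casp14 left out for want of counts. Sbsn, Spink5 and Tchh, which had fallen on knockdown under DMSO, were among the 22 that rose. The 6 without a call were Dmkn, Casp14, Calml3, Scel and both Sprr2a rows.

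In NS cells Dox-4OHT raised 2 members, Sprr1a and Sprr1b, and lowered 11, against 20.8% and 21.3% of all genes. In knockdown cells it raised 6 and lowered 11, against 19.5% and 16.6%. The median log2 changes were −0.69 in NS cells and −0.49 in knockdown cells. With members at their bounds they were −0.75 in NS cells, where 4 members had too few counts for a fold, and −0.49 in knockdown cells. Knockdown with Dox-4OHT against NS DMSO libraries, the comparison that changes both factors, had 18 members higher and 7 lower, against 32.1% and 32.8% of all genes. Each knockdown comparison shares libraries with each Dox-4OHT comparison, and the comparison that changes both factors shares libraries with all 4, so those counts are not independent of each other. Where Sprr2a is counted once, 27 members were tested and the counts called are the same.

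**Figure D2:**
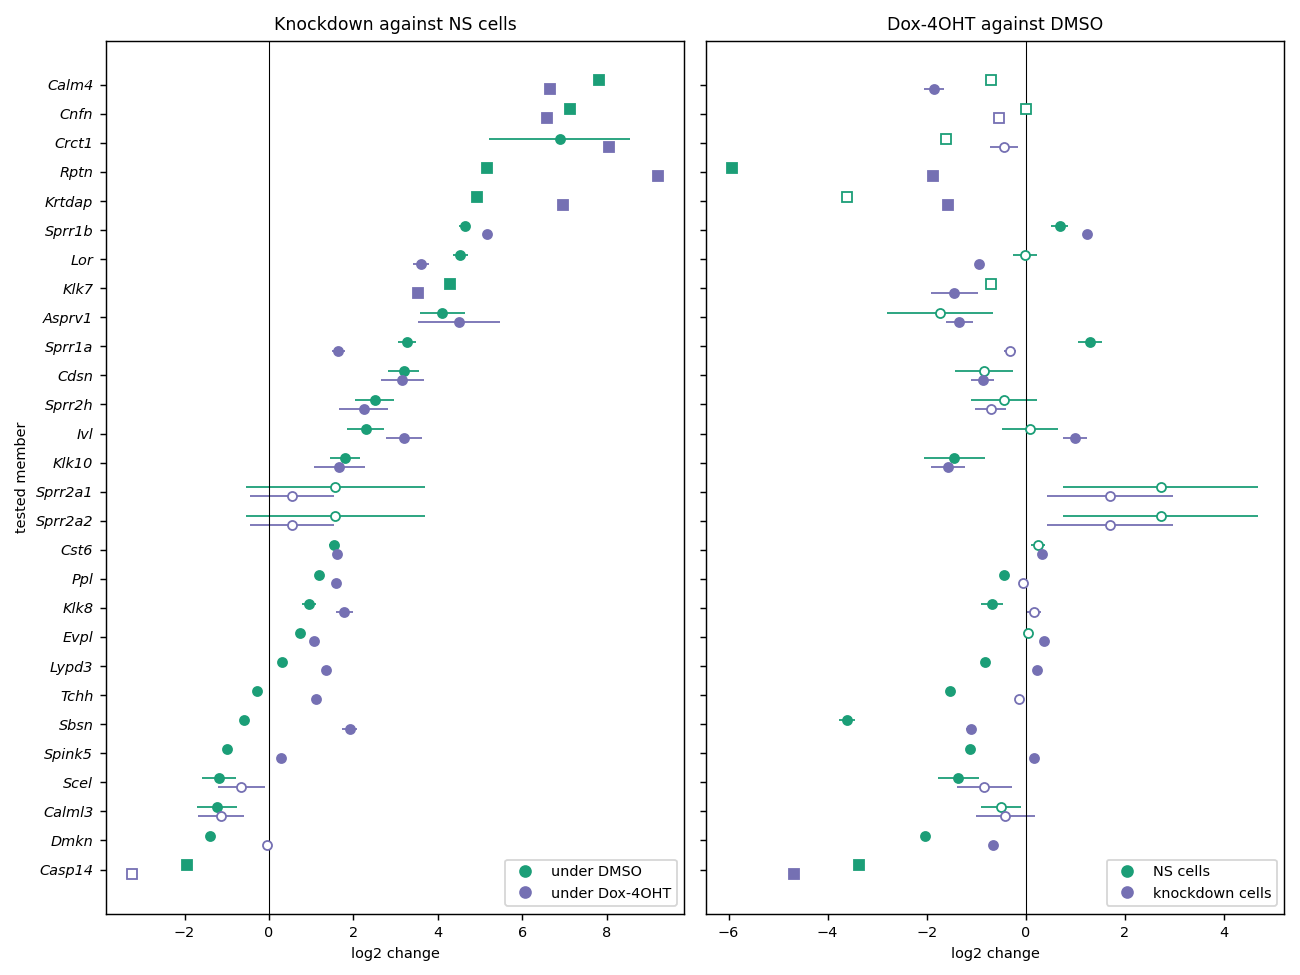
Log2 change of each tested member (rows, in order of the first comparison) in knockdown against NS cells, with DMSO and with Dox-4OHT, and under Dox-4OHT against DMSO in NS cells and in knockdown cells. Filled points were called at adjusted p 0.05, open points were not, squares mark changes with 3 or fewer counts in a group or with no standard error, and bars are standard errors of the model. The knockdown changes of Lor and Sprr1b are above 3 in both treatments, whereas the points of Sbsn and Spink5 are below 0 under DMSO and above 0 under Dox-4OHT.

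Of the 18 envelope precursors 9 were tested, and 7 of these rose on knockdown in each treatment. Of all genes 30.9% were called higher under DMSO and 30.5% under Dox-4OHT. Crct1, Cnfn, Sprr2h and Ivl are among the 7 and passed the filter through the knockdown libraries, as described above. Sprr1b was at 2.86 and 3.69 CPM in NS DMSO libraries and at 81.3 and 80.4 CPM in KD DMSO libraries. Under Dox-4OHT it was at 5.25 and 5.20 CPM in NS and at 191 and 187 CPM in KD libraries. All 4 knockdown libraries were far above all 4 NS libraries. The log2 change on knockdown was 4.63 ± 0.14 under DMSO (edgeR adjusted p = 2.27e-24) and 5.17 ± 0.11 under Dox-4OHT (edgeR adjusted p = 2.14e-27). Dox-4OHT raised Sprr1b in NS cells by 0.68 ± 0.17 (edgeR adjusted p = 0.00180) and in knockdown cells by 1.23 ± 0.05 (edgeR adjusted p = 2.94e-17) on the log2 scale. The call in NS cells was lost without NS DMSO replicate 1 (0.50, edgeR adjusted p = 0.0801).

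Sprr1a had another pattern. Its levels were 4.17 and 4.19 CPM in NS DMSO libraries, 46.7 and 34.0 CPM in KD DMSO libraries, 10.2 and 10.3 CPM in NS Dox-4OHT libraries, and 33.1 and 31.0 CPM in KD Dox-4OHT libraries. The 4 knockdown libraries were above the 4 NS libraries, and the second knockdown library under DMSO was close to those under Dox-4OHT. Knockdown raised it by 3.26 ± 0.21 under DMSO (edgeR adjusted p = 8.59e-09) and by 1.65 ± 0.16 under Dox-4OHT (edgeR adjusted p = 1.83e-06) on the log2 scale. In NS cells Dox-4OHT raised it by 1.29 ± 0.24 (edgeR adjusted p = 8.04e-04). In knockdown cells the log2 change with Dox-4OHT was −0.32 ± 0.12 and was not called (edgeR adjusted p = 0.0544). It was called lower there with the replicate number as a block (edgeR adjusted p = 0.00361), and without knockdown DMSO replicate 2 (−0.54, edgeR adjusted p = 4.06e-05). It was also called without the filter, without robust estimation, with library totals as they are and without Rn45s, at −0.36 to −0.32.

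The makeup of the Sprr transcripts differed between the groups. Of the Sprr1a and Sprr1b counts together, Sprr1b made up 40.7% (95% exact binomial interval 31.6 to 50.4) and 46.8% (37.3 to 56.6) in NS DMSO libraries. Its share was 63.5% (61.2 to 65.8) and 70.3% (68.0 to 72.5) in KD DMSO libraries, and 34.0% (27.5 to 41.0) and 33.5% (27.2 to 40.3) in NS Dox-4OHT libraries. In KD Dox-4OHT libraries it was 85.2% (84.0 to 86.4) and 85.8% (84.4 to 87.1). The intervals cover counting error only. The lowest shares were in NS cells with Dox-4OHT and the highest in knockdown cells with Dox-4OHT, and the shares of the 4 groups did not overlap. The intervals of the NS DMSO libraries overlapped those of the NS Dox-4OHT libraries. Sprr1a and Sprr1b transcripts share 0 of their 50-base stretches with those of any other Sprr gene.

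The remaining Sprr genes were scarce. The rows of Sprr2a1 and Sprr2a2 held identical values in all 8 libraries, and 94.1% and 96.5% of their 50-base stretches recur in another Sprr transcript, so they stand for 1 measurement. Their level was 0.124 and 0.426 CPM in NS DMSO libraries, 0.458 and 1.12 CPM in KD DMSO libraries, 1.24 and 2.34 CPM in NS Dox-4OHT libraries, and 4.43 and 0.547 CPM in KD Dox-4OHT libraries. The last pair differs by 8.10 times, more than any other member at 1 CPM in any group. The knockdown change under Dox-4OHT turned with it, from 0.55 (edgeR adjusted p = 0.673) to −1.70 (edgeR adjusted p = 0.0267) without knockdown Dox-4OHT replicate 1 and to 1.29 (edgeR adjusted p = 0.00348) without replicate 2. With Dox-4OHT in NS cells the log2 change of Sprr2a was 2.72 ± 1.96 and was not called (edgeR adjusted p = 0.264). It was called with only the compared libraries (edgeR adjusted p = 3.61e-04) and without robust estimation (edgeR adjusted p = 0.0243), at 2.72 in both. Sprr2h, which shares none of its 50-base stretches, was at 0.373 and 0.568 CPM in NS DMSO libraries and at 3.28 and 2.11 CPM in KD DMSO libraries. Under Dox-4OHT it was at 0.154 and 0.513 CPM in NS and at 1.82 and 1.41 CPM in KD libraries. Its knockdown changes were 2.50 ± 0.46 under DMSO (edgeR adjusted p = 4.25e-06) and 2.24 ± 0.57 under Dox-4OHT (edgeR adjusted p = 2.97e-04). The second moved to 1.65 without NS Dox-4OHT replicate 1 and to 3.33 without replicate 2. Sprr2b, Sprr2f, Sprr2g, Sprr2i, Sprr2k and Sprr4 had 1 to 21 counts over all libraries and were not tested.

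The sum over all Sprr rows does not depend on how reads are divided among them, though it holds the Sprr2a value in 2 rows. It was 7.77 and 9.49 CPM in NS DMSO libraries, 133 and 119 CPM in KD DMSO libraries, 18.1 and 20.9 CPM in NS Dox-4OHT libraries and 236 and 221 CPM in KD Dox-4OHT libraries. The 4 groups did not overlap. The log2 change of the sum on knockdown was 3.87 ± 0.11 under DMSO (edgeR adjusted p = 6.70e-18) and 3.55 ± 0.08 under Dox-4OHT (edgeR adjusted p = 1.51e-18). Dox-4OHT raised the sum by 1.19 ± 0.13 in NS cells (edgeR adjusted p = 2.47e-07) and by 0.86 ± 0.05 in knockdown cells (edgeR adjusted p = 2.82e-10) on the log2 scale. Between NS DMSO libraries and KD Dox-4OHT libraries it differed by 4.73 ± 0.11 (edgeR adjusted p = 5.80e-20).

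**Figure D3:**
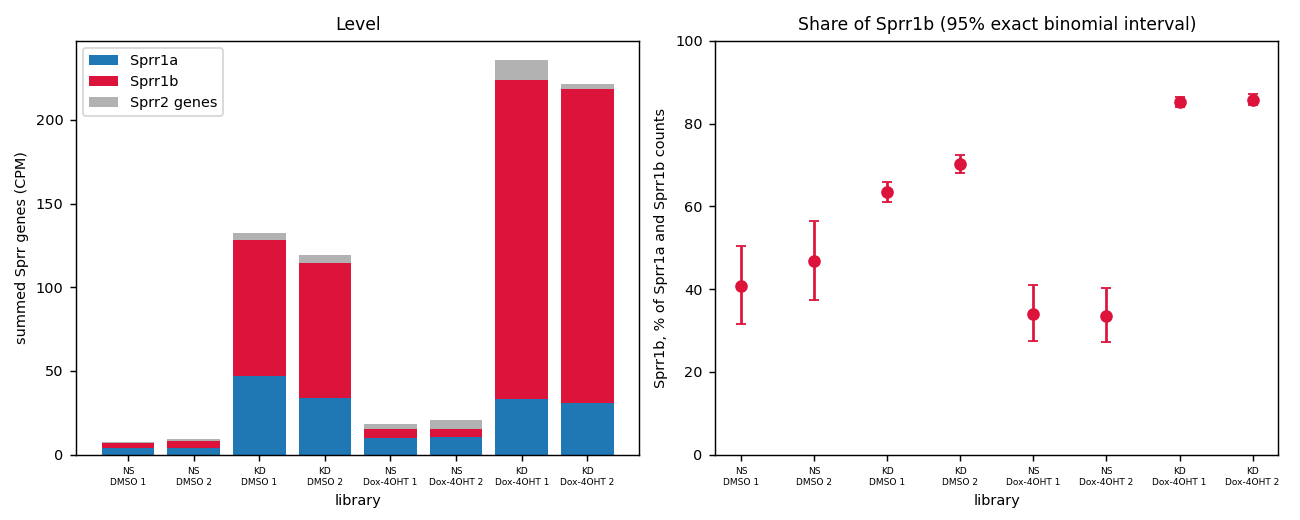
Summed level of the Sprr genes in each of the 8 libraries in CPM, split into Sprr1a, Sprr1b and the Sprr2 genes (left), and the share of Sprr1b among the counts of Sprr1a and Sprr1b with its 95% exact binomial interval (right). The stacked bars reach 236 and 221 CPM in KD Dox-4OHT libraries, mostly Sprr1b, against 7.77 and 9.49 CPM in NS DMSO libraries, and the shares run from 33.5% in an NS Dox-4OHT library to 85.8% in a KD Dox-4OHT library.

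Lor codes for loricrin, the main protein of the finished envelope. It was at 2.49 and 2.56 CPM in NS DMSO libraries and at 61.9 and 55.1 CPM in KD DMSO libraries. Under Dox-4OHT it was at 2.93 and 2.05 CPM in NS and at 31.3 and 29.2 CPM in KD libraries. Knockdown libraries were high in both treatments and lower with Dox-4OHT than with DMSO, while the 4 NS libraries overlapped. The knockdown change was 4.53 ± 0.18 under DMSO (edgeR adjusted p = 8.93e-22) and 3.61 ± 0.19 under Dox-4OHT (edgeR adjusted p = 6.86e-18) on the log2 scale. In knockdown cells Lor fell by 0.95 ± 0.08 with Dox-4OHT (edgeR adjusted p = 1.14e-10), and in NS cells the change of −0.02 ± 0.25 was not called (edgeR adjusted p = 0.952).

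Ivl codes for involucrin, an early precursor. It was at 0.249 and 0.853 CPM in NS DMSO libraries, 2.60 and 2.67 CPM in KD DMSO libraries, 0.540 and 0.586 CPM in NS Dox-4OHT libraries, and 5.99 and 4.38 CPM in KD Dox-4OHT libraries. Every knockdown library was above every NS library. It rose on knockdown by 2.29 ± 0.44 under DMSO (edgeR adjusted p = 1.06e-05) and by 3.20 ± 0.43 under Dox-4OHT (edgeR adjusted p = 5.09e-09) on the log2 scale. The first change was 1.63 without NS DMSO replicate 1 and 3.37 without replicate 2. In knockdown cells Ivl rose with Dox-4OHT by 0.99 ± 0.24 (edgeR adjusted p = 0.00159), opposite to Lor. That call was lost without knockdown Dox-4OHT replicate 1 (0.73, edgeR adjusted p = 0.0766) and with DESeq2 (adjusted p = 0.10).

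Crct1, a cysteine-rich gene of the same cluster on chromosome 3, and Cnfn, which codes for cornifelin, were close to absent from NS cells. Crct1 was at 0 and 0.284 CPM in NS DMSO libraries, 21.0 and 12.6 CPM in KD DMSO libraries, 0.0772 and 0 CPM in NS Dox-4OHT libraries, and 12.2 and 12.3 CPM in KD Dox-4OHT libraries. Under DMSO its log2 change on knockdown was 6.88 ± 1.67 (edgeR adjusted p = 2.20e-04), 5.84 without NS DMSO replicate 1 and 10.88 without replicate 2. Under Dox-4OHT the NS libraries held 1 count against 346, a ratio of 327 (58.3 to 12957), which fell to 159 without NS Dox-4OHT replicate 2 and to at least 56.0 without replicate 1. Cnfn had 0 whole counts in the 4 NS libraries. It was at 1.53 and 0.984 CPM in KD DMSO libraries, at least 12.5-fold higher than in NS cells, and at 1.17 and 0.469 CPM under Dox-4OHT, at least 7.56-fold higher. These bounds set the group at 0 to the floor of 3 counts over the group. With a single NS library at that floor they were at least 5.84-fold under DMSO and at least 3.68-fold under Dox-4OHT.

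**Figure D4:**
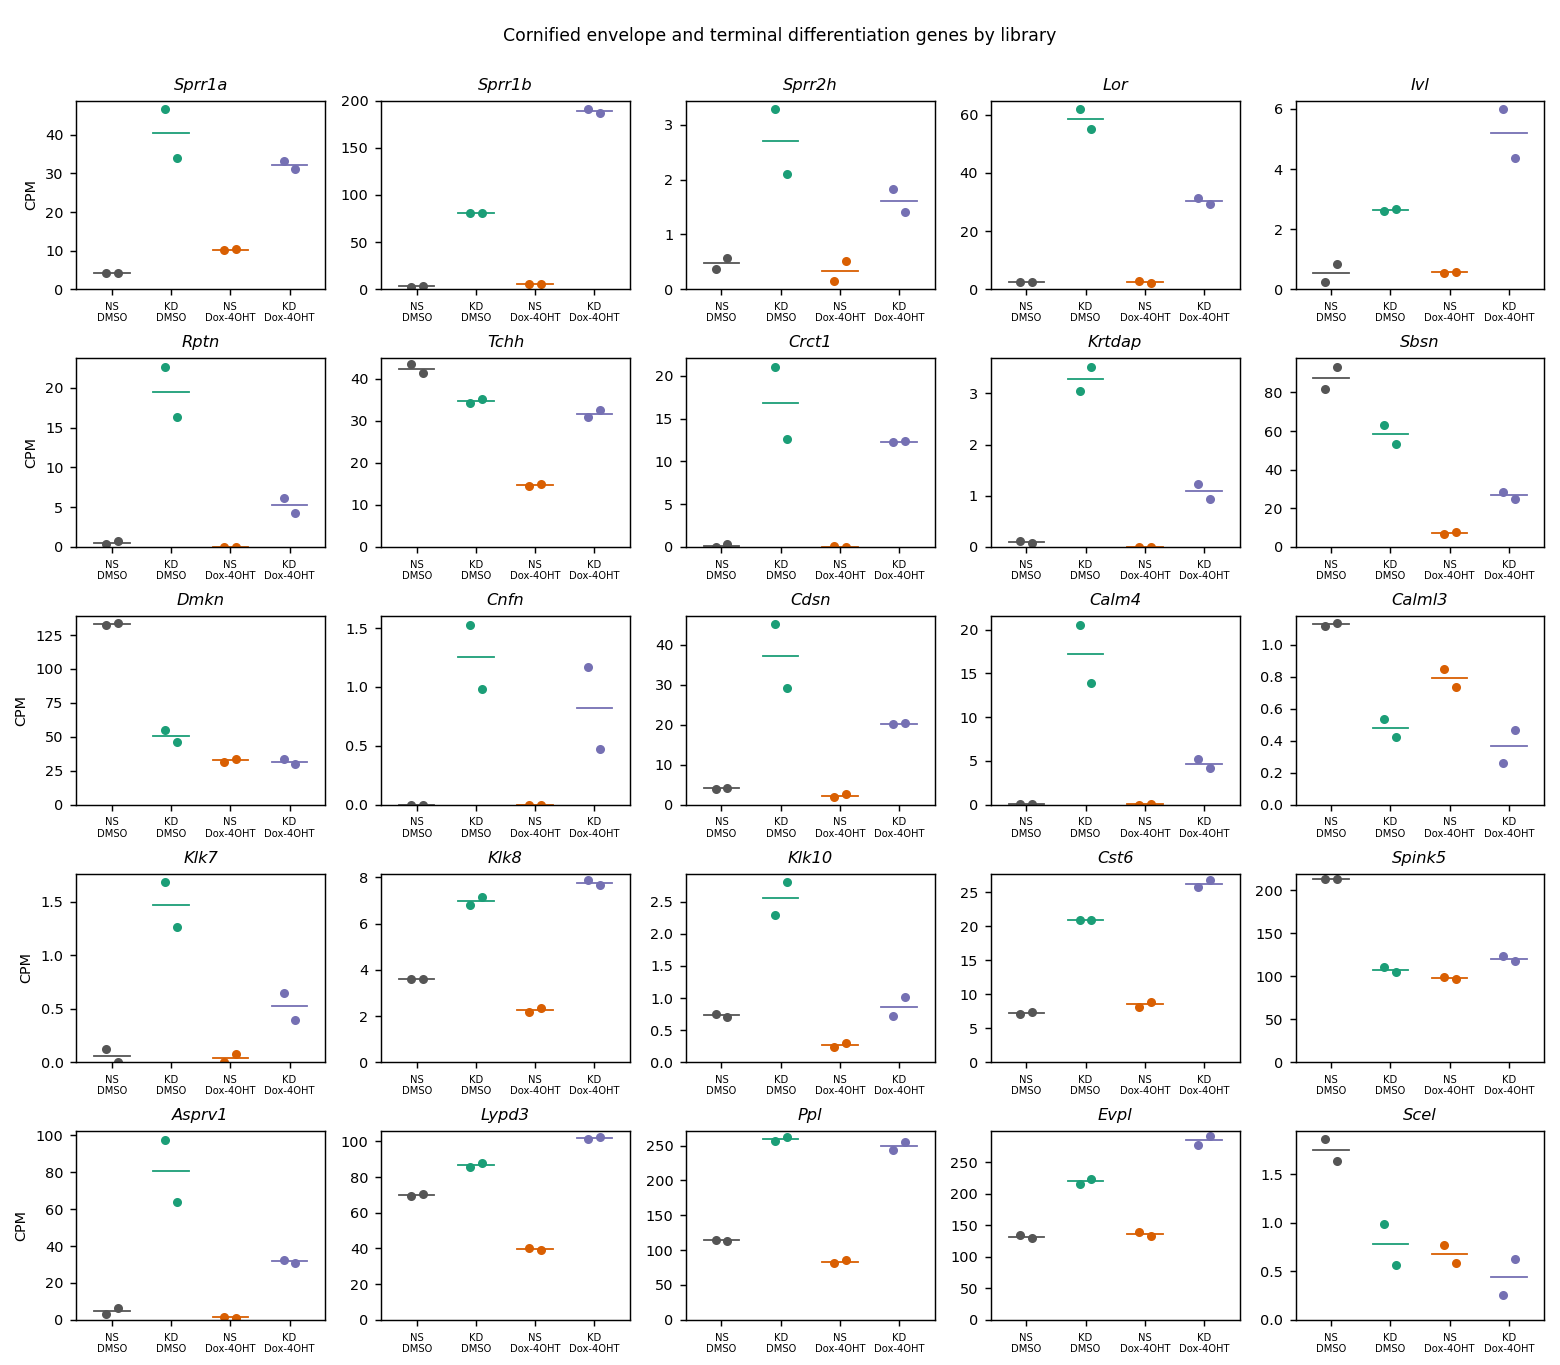
Level of 25 members in the 8 libraries in CPM, on a linear axis from 0, with 1 panel for each member, points for libraries and lines for the means of groups. Lor, Sprr1b, Asprv1 and Crct1 are high in the 4 knockdown libraries, and Sbsn and Dmkn are highest in NS DMSO libraries.

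The S100-fused proteins bundle keratin and hold water in the outer layers. Rptn, which codes for repetin, was at 0.373 and 0.711 CPM in NS DMSO libraries, 22.6 and 16.3 CPM in KD DMSO libraries, 0 and 0 CPM in NS Dox-4OHT libraries, and 6.12 and 4.30 CPM in KD Dox-4OHT libraries. It had counts in every knockdown library and none in the NS libraries with Dox-4OHT. Its log2 change on knockdown under DMSO was 5.17 (edgeR adjusted p = 3.87e-08), and under Dox-4OHT it was at least 47.0-fold higher in knockdown cells (at least 22.9-fold with 1 NS library). In NS cells Dox-4OHT took it from 16 counts to 0, at least 4.71-fold lower (edgeR adjusted p = 0.0264). That call was lost without NS DMSO replicate 2 (edgeR adjusted p = 0.108) and without either NS Dox-4OHT replicate (edgeR adjusted p = 0.0797 and 0.0888), where the bound was 2.42-fold and 2.29-fold. In knockdown cells it fell by 1.87 on the log2 scale (edgeR adjusted p = 1.87e-05).

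Tchh, which codes for trichohyalin of the inner root sheath of the hair follicle, behaved unlike repetin. It was at 43.4 and 41.4 CPM in NS DMSO libraries, 34.3 and 35.1 CPM in KD DMSO libraries, 14.4 and 14.9 CPM in NS Dox-4OHT libraries, and 30.9 and 32.5 CPM in KD Dox-4OHT libraries. The NS libraries with Dox-4OHT stood below all others. Knockdown lowered Tchh by a log2 change of −0.29 ± 0.07 under DMSO (edgeR adjusted p = 5.04e-04) and raised it by 1.11 ± 0.09 under Dox-4OHT (edgeR adjusted p = 9.69e-12). In NS cells it fell by 1.53 ± 0.08 with Dox-4OHT (edgeR adjusted p = 8.36e-15). Hrnr (18.5 counts over all libraries) and Flg2 (5.5) were not tested. Hornerin had 15 counts in KD DMSO libraries and 0 in NS DMSO libraries, at least 5.52-fold higher (at least 2.58-fold with 1 NS library).

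Of the plakins and sciellin, both plakins rose on knockdown in each treatment. Ppl, which codes for periplakin, was at 115 and 113 CPM in NS DMSO libraries, 257 and 262 CPM in KD DMSO libraries, 81.8 and 85.3 CPM in NS Dox-4OHT libraries, and 244 and 255 CPM in KD Dox-4OHT libraries. Its knockdown change was 1.19 ± 0.04 under DMSO (edgeR adjusted p = 1.72e-19) and 1.58 ± 0.04 under Dox-4OHT (edgeR adjusted p = 1.33e-21) on the log2 scale. Evpl, which codes for its partner envoplakin, was at 135 and 129, 215 and 224, 139 and 133, and 278 and 291 CPM in the same order of groups. Its knockdown changes were 0.73 ± 0.04 (edgeR adjusted p = 1.37e-14) and 1.06 ± 0.04 (edgeR adjusted p = 4.14e-18). For both genes every knockdown library was above every NS library. With Dox-4OHT Ppl fell by 0.45 ± 0.04 in NS cells (edgeR adjusted p = 4.16e-09), and Evpl rose by 0.37 ± 0.04 in knockdown cells (edgeR adjusted p = 2.10e-08), on the log2 scale.

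Scel, which codes for sciellin, went the other way at a low level. It was at 1.87 and 1.63 CPM in NS DMSO libraries, 0.993 and 0.562 CPM in KD DMSO libraries, 0.772 and 0.586 CPM in NS Dox-4OHT libraries, and 0.261 and 0.625 CPM in KD Dox-4OHT libraries. Only the NS libraries under DMSO were above 1 CPM. The log2 changes were −1.18 ± 0.40 on knockdown under DMSO (edgeR adjusted p = 0.00822) and −1.37 ± 0.42 with Dox-4OHT in NS cells (edgeR adjusted p = 0.00600). Neither call held with DESeq2 (adjusted p = 0.162 and 0.148). The first was also lost without NS DMSO replicate 1 (edgeR adjusted p = 0.0662) or knockdown DMSO replicate 2 (0.135), and the second without NS DMSO replicate 1 (0.0571) or replicate 2 of NS Dox-4OHT (0.0679).

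The 3 secreted suprabasal proteins are coded by a cluster on chromosome 7, whose promoters are shown above. They did not move together on knockdown. Krtdap, which codes for keratinocyte differentiation-associated protein, was at 0.124 and 0.0711 CPM in NS DMSO libraries, 3.06 and 3.51 CPM in KD DMSO libraries, 0 and 0 CPM in NS Dox-4OHT libraries, and 1.24 and 0.938 CPM in KD Dox-4OHT libraries. All knockdown libraries were above all NS libraries. Under DMSO the ratio of knockdown to NS cells was 33.1 (11.0 to 164), from 90 against 3 counts, and under Dox-4OHT it was at least 9.77-fold higher (at least 4.76-fold with 1 NS library). In knockdown cells Krtdap fell by 1.57 on the log2 scale with Dox-4OHT (edgeR adjusted p = 1.16e-04).

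Sbsn, which codes for suprabasin, was at 82.0 and 93.4 CPM in NS DMSO libraries, 63.3 and 53.4 CPM in KD DMSO libraries, 6.64 and 7.69 CPM in NS Dox-4OHT libraries, and 28.7 and 25.0 CPM in KD Dox-4OHT libraries. The groups did not overlap, and NS cells held both the highest and the lowest levels. With Dox-4OHT it fell by 3.61 ± 0.16 in NS cells (edgeR adjusted p = 1.33e-10) and by 1.11 ± 0.11 in knockdown cells (edgeR adjusted p = 3.17e-06) on the log2 scale. The knockdown change was −0.59 ± 0.09 under DMSO (edgeR adjusted p = 5.71e-05) and 1.91 ± 0.17 under Dox-4OHT (edgeR adjusted p = 3.30e-07).

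Dmkn, which codes for dermokine, was at 132 and 134 CPM in NS DMSO libraries and at 54.8 and 46.4 CPM in KD DMSO libraries. Under Dox-4OHT it was at 31.3 and 33.8 CPM in NS and at 33.3 and 30.1 CPM in KD libraries. The last 2 groups overlapped. Dermokine fell by 1.40 ± 0.06 on knockdown under DMSO (edgeR adjusted p = 5.25e-16), by 2.03 ± 0.07 with Dox-4OHT in NS cells (edgeR adjusted p = 6.71e-18) and by 0.67 ± 0.08 with Dox-4OHT in knockdown cells (edgeR adjusted p = 1.58e-07), on the log2 scale. Under Dox-4OHT the knockdown change was −0.04 ± 0.08 (edgeR adjusted p = 0.725).

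The adhesion proteins both rose on knockdown. Cdsn codes for corneodesmosin, which glues the cells of the outer layer and is cleaved as they are shed. It was at 3.86 and 4.26 CPM in NS DMSO libraries, 45.1 and 29.2 CPM in KD DMSO libraries, 1.85 and 2.64 CPM in NS Dox-4OHT libraries, and 20.1 and 20.4 CPM in KD Dox-4OHT libraries. The groups did not overlap. Its knockdown changes were 3.19 ± 0.37 (edgeR adjusted p = 3.58e-04) and 3.16 ± 0.50 (edgeR adjusted p = 0.00124) on the log2 scale. With Dox-4OHT the change was −0.84 ± 0.58 in NS cells, which was not called (edgeR adjusted p = 0.304). It was −0.87 ± 0.23 in knockdown cells, which was called (edgeR adjusted p = 0.0349). Both depended on the fit at nearly the same log2 change. The first was called with DESeq2 (adjusted p = 0.0183), with only the compared libraries, without the filter, or without either knockdown DMSO library (edgeR adjusted p = 0.00282 to 0.0162). The second was lost with only the compared libraries (edgeR adjusted p = 0.172) and without any 1 of the NS libraries or of the knockdown Dox-4OHT libraries (edgeR adjusted p = 0.0685 to 0.158).

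Lypd3, which codes for the surface protein C4.4A, was at 69.4 and 70.8 CPM in NS DMSO libraries and at 85.4 and 87.7 CPM in KD DMSO libraries. Under Dox-4OHT it was at 40.1 and 39.3 CPM in NS and at 101 and 103 CPM in KD libraries. The groups did not overlap. The knockdown change was 0.31 ± 0.05 under DMSO (edgeR adjusted p = 5.78e-06) and 1.36 ± 0.06 under Dox-4OHT (edgeR adjusted p = 6.79e-18) on the log2 scale. With Dox-4OHT it fell by 0.82 ± 0.06 in NS cells (edgeR adjusted p = 2.31e-12) and rose by 0.23 ± 0.05 in knockdown cells (edgeR adjusted p = 2.78e-04).

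Calm4, a skin calmodulin-like gene, was at 0.0622 and 0.0711 CPM in NS DMSO libraries, 20.5 and 13.8 CPM in KD DMSO libraries, 0 and 0.0732 CPM in NS Dox-4OHT libraries, and 5.21 and 4.14 CPM in KD Dox-4OHT libraries. The NS libraries held at most 1 count each. The ratio of knockdown to NS cells was 257 (70.8 to 2130) under DMSO and 126 (22.2 to 5003) under Dox-4OHT. The latter was 64.5 without NS Dox-4OHT replicate 1 and at least 20.4 without replicate 2. Calm4 fell by 1.86 ± 0.20 with Dox-4OHT in knockdown cells (edgeR adjusted p = 5.36e-07) on the log2 scale. Calml3, its relative, was at 1.12 and 1.14, 0.535 and 0.422, 0.849 and 0.732, and 0.261 and 0.469 CPM in the same order of groups. Its change of −1.23 ± 0.47 on knockdown under DMSO (edgeR adjusted p = 0.0181) was not called with DESeq2 (adjusted p = 0.205). It was also lost without NS DMSO replicate 1 or 2 (edgeR adjusted p = 0.0678 and 0.0620) or knockdown DMSO replicate 2 (0.120).

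Among the proteases, 4 of the 5 tested rose on knockdown in each treatment, against 30.9% of all genes under DMSO and 30.5% under Dox-4OHT. Klk7 and Klk10, which are among the 4, passed the filter through the knockdown libraries. Asprv1 codes for a skin protease that processes profilaggrin. It was at 3.23 and 6.25 CPM in NS DMSO libraries, 97.5 and 64.1 CPM in KD DMSO libraries, 1.62 and 1.17 CPM in NS Dox-4OHT libraries, and 32.6 and 30.8 CPM in KD Dox-4OHT libraries. The groups did not overlap. It rose on knockdown by 4.11 ± 0.52 under DMSO (edgeR adjusted p = 9.58e-04) and by 4.50 ± 0.97 under Dox-4OHT (edgeR adjusted p = 0.00375) on the log2 scale. In knockdown cells it fell by 1.34 ± 0.28 with Dox-4OHT (edgeR adjusted p = 0.0241). That call was lost with only the compared libraries (edgeR adjusted p = 0.107), without either NS Dox-4OHT library (0.0537 in both) and without knockdown Dox-4OHT replicate 1 or 2 (0.114 and 0.113). In NS cells the change of −1.73 ± 1.07 was not called (edgeR adjusted p = 0.241). It was called at −1.76 to −1.73 with DESeq2 (adjusted p = 0.00152), with only the compared libraries, without robust estimation and without either knockdown DMSO library (edgeR adjusted p = 0.00257 to 0.0142).

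The kallikreins are serine proteases of shedding. Klk8 was at 3.61 and 3.62 CPM in NS DMSO libraries, 6.80 and 7.17 CPM in KD DMSO libraries, 2.16 and 2.34 CPM in NS Dox-4OHT libraries, and 7.88 and 7.66 CPM in KD Dox-4OHT libraries. It rose on knockdown by 0.95 ± 0.17 (edgeR adjusted p = 1.85e-05) and 1.78 ± 0.20 (edgeR adjusted p = 3.76e-09) on the log2 scale. It fell by 0.68 ± 0.22 with Dox-4OHT in NS cells (edgeR adjusted p = 0.0128), a call lost with DESeq2 (adjusted p = 0.120) and without replicate 1 of NS DMSO (edgeR adjusted p = 0.0578) or of NS Dox-4OHT (0.0749). Klk10 was at 0.746 and 0.711, 2.29 and 2.81, 0.232 and 0.293, and 0.717 and 1.02 CPM in the same order. Knockdown raised it by 1.80 ± 0.36 under DMSO (edgeR adjusted p = 3.09e-05) and by 1.66 ± 0.61 under Dox-4OHT (edgeR adjusted p = 0.0108). The second call was lost with DESeq2 (adjusted p = 0.0706), without NS Dox-4OHT replicate 1 (edgeR adjusted p = 0.0652) and without knockdown Dox-4OHT replicate 2 (0.0808). Both shRNA lines had lower Klk10 with Dox-4OHT. The log2 change was −1.58 ± 0.34 in knockdown cells (edgeR adjusted p = 3.21e-04) and −1.44 ± 0.62 in NS cells (edgeR adjusted p = 0.0408). The call in NS cells was lost with DESeq2 (adjusted p = 0.189), without the filter (edgeR adjusted p = 0.0565) and without any 1 of the 4 NS libraries (0.0922 to 0.163).

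Klk7, which cleaves corneodesmosin, was at 0.124 and 0 CPM in NS DMSO libraries, 1.68 and 1.26 CPM in KD DMSO libraries, 0 and 0.0732 CPM in NS Dox-4OHT libraries, and 0.651 and 0.391 CPM in KD Dox-4OHT libraries. Every knockdown library was above every NS library. The ratio of knockdown to NS cells was 22.1 (5.72 to 189) under DMSO, 11.8 without NS DMSO replicate 2 and at least 6.87 without replicate 1. Under Dox-4OHT it was 14.2 (2.18 to 597), 7.28 without NS Dox-4OHT replicate 1 and at least 2.30 without replicate 2. The call under Dox-4OHT (edgeR adjusted p = 0.00393) was lost with DESeq2 (adjusted p = 0.0534) and without knockdown Dox-4OHT replicate 1 (edgeR adjusted p = 0.0541). In knockdown cells Klk7 fell by 1.44 ± 0.48 on the log2 scale with Dox-4OHT (edgeR adjusted p = 0.0125). That call was lost without knockdown DMSO replicate 1 (edgeR adjusted p = 0.107) or knockdown Dox-4OHT replicate 2 (0.113). Klk5, with 32.5 counts over all libraries, was not tested. Of these, 28 whole counts were in KD DMSO libraries against 1 in NS DMSO libraries, a ratio of 30.9 (5.11 to 1264), which was 16.5 without NS DMSO replicate 2 and at least 4.81 without replicate 1.

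Casp14, the caspase of cornification, was low and fell. It was at 0.871 and 0.853 CPM in NS DMSO libraries, 0.153 and 0.281 CPM in KD DMSO libraries, 0.0772 and 0.0732 CPM in NS Dox-4OHT libraries and 0 in both knockdown libraries under Dox-4OHT. The NS libraries under DMSO were above the other 6. Its log2 change was −1.93 on knockdown under DMSO (edgeR adjusted p = 0.00569). That call was lost with DESeq2 (adjusted p = 0.186) and without knockdown DMSO replicate 1 (edgeR adjusted p = 0.0654). In NS cells the ratio of DMSO to Dox-4OHT was 11.5 (2.87 to 99.7; edgeR adjusted p = 6.03e-04), with an adjusted p of 0.0636 by DESeq2. In knockdown cells Casp14 was at least 2.06-fold lower with Dox-4OHT (edgeR adjusted p = 0.0255), a call lost without the filter (0.0604) and without knockdown DMSO replicate 2 (0.141) or knockdown Dox-4OHT replicate 1 or 2 (0.136 and 0.103). With 1 knockdown Dox-4OHT library the bound was 0.937 or 1.12, so that no difference is shown.

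The inhibitors differed from each other. Cst6, which codes for cystatin M/E, was at 7.09 and 7.39 CPM in NS DMSO libraries, 20.9 and 20.9 CPM in KD DMSO libraries, 8.18 and 8.94 CPM in NS Dox-4OHT libraries, and 25.8 and 26.8 CPM in KD Dox-4OHT libraries. Knockdown raised it by 1.53 ± 0.11 under DMSO (edgeR adjusted p = 1.84e-12) and by 1.62 ± 0.11 under Dox-4OHT (edgeR adjusted p = 2.28e-13) on the log2 scale. In knockdown cells Dox-4OHT raised it by 0.33 ± 0.09 (edgeR adjusted p = 0.00366), with an adjusted p of 0.123 by DESeq2. Spink5, which codes for LEKTI, the inhibitor of the kallikreins, was at 213 and 213 CPM in NS DMSO libraries, 111 and 104 CPM in KD DMSO libraries, 98.9 and 97.1 CPM in NS Dox-4OHT libraries, and 123 and 117 CPM in KD Dox-4OHT libraries. The NS libraries under DMSO were above the other 6. Spink5 fell by 0.99 ± 0.04 on knockdown under DMSO (edgeR adjusted p = 3.41e-17) and by 1.12 ± 0.04 with Dox-4OHT in NS cells (edgeR adjusted p = 1.14e-17). It rose by 0.30 ± 0.05 on knockdown under Dox-4OHT (edgeR adjusted p = 2.72e-06). In knockdown cells Spink5 rose by 0.16 ± 0.04 with Dox-4OHT (edgeR adjusted p = 0.00563). That call was lost with DESeq2 (adjusted p = 0.0594) and without knockdown DMSO replicate 2 (edgeR adjusted p = 0.114) or knockdown Dox-4OHT replicate 1 (0.107).

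The difference between the Dox-4OHT responses of knockdown and NS cells was tested for each member as an interaction. It was called for 11 of the 28 tested members, 9 higher and 2 lower, against 20.2% and 18.0% of all genes. The response of Sbsn was higher in knockdown cells by 2.50 ± 0.19 (edgeR adjusted p = 3.13e-07), that of Tchh by 1.40 ± 0.11 (edgeR adjusted p = 9.19e-11) and that of Dmkn by 1.36 ± 0.10 (edgeR adjusted p = 2.13e-10) on the log2 scale. The differences were 1.28 ± 0.06 for Spink5 (edgeR adjusted p = 1.06e-14) and 1.05 ± 0.07 for Lypd3 (edgeR adjusted p = 1.37e-11). For all 5 of these genes the fall in NS cells was larger than any fall in knockdown cells. The response was lower in knockdown cells for Sprr1a, by a log2 difference of −1.62 ± 0.27 (edgeR adjusted p = 4.44e-04), and for Lor, by −0.92 ± 0.26 (edgeR adjusted p = 0.00617). For Lor the call was lost without NS Dox-4OHT replicate 1 (−0.66, edgeR adjusted p = 0.137). Ppl (0.39 ± 0.06, edgeR adjusted p = 5.80e-06), Evpl (0.33 ± 0.06, edgeR adjusted p = 5.62e-05), Klk8 (0.83 ± 0.26, edgeR adjusted p = 0.0125) and Sprr1b (0.54 ± 0.18, edgeR adjusted p = 0.0187) had higher responses in knockdown cells. The call of Sprr1b was lost with DESeq2 (adjusted p = 0.0528) and without replicate 2 of NS DMSO (edgeR adjusted p = 0.296) or either NS Dox-4OHT library (0.0509 and 0.0593). That of Klk8 was lost with DESeq2 (adjusted p = 0.143) and without NS Dox-4OHT replicate 1 (edgeR adjusted p = 0.0522).

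For the summed Sprr genes the difference of the responses was −0.32 ± 0.14 and was not called (edgeR adjusted p = 0.0729). It was called without NS DMSO replicate 2 (−0.47, edgeR adjusted p = 0.0285), knockdown DMSO replicate 2 (−0.40, edgeR adjusted p = 0.0178) or NS Dox-4OHT replicate 1 (−0.42, edgeR adjusted p = 0.0319). Sprr1a and Sprr1b, which make up most of that sum, had interactions of opposite sign.

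The KD DMSO libraries differed from each other in these genes, and not in them alone. Over the tested genes with enough counts, a chi-square between the replicates of a group was 8.29 per degree of freedom in KD DMSO libraries. It was 2.35 in NS DMSO, 13.3 in NS Dox-4OHT and 2.68 in KD Dox-4OHT libraries. Rn45s made up 0.388% and 1.36% of the counts in KD DMSO libraries. Its part in these differences was not tested. Replicate 1 exceeded replicate 2 by over 1.2 times in 9 of the 23 members at 1 CPM or more in that group: Crct1 (1.66 times), Sprr2h (1.56), Cnfn (1.55), Cdsn (1.54), Asprv1 (1.52), Calm4 (1.48), Rptn (1.39), Sprr1a (1.37) and Klk7 (1.33). The median ratio of the 23 was 1.12, and Klk10 (0.815) was lower by the same measure. Sprr1b (1.01), Cst6 (0.999), Ppl (0.982) and Evpl (0.963) were alike in both. In KD Dox-4OHT libraries the median ratio was 1.06, with 6 of 21 members higher in replicate 1 by over 1.2 times and 0 lower by that measure. In NS cells the median was 0.986 under DMSO, with 0 of 16 members higher and 2 lower, and 0.966 under Dox-4OHT, with 2 of 15 higher and 2 lower. The late cornified envelope genes, described next, differed in the same direction. In every other library pair the summed level of all members differed by less: 824 and 834 CPM in NS DMSO libraries, 449 and 449 CPM in NS Dox-4OHT libraries and 1222 and 1218 CPM in KD Dox-4OHT libraries, against 1264 and 1163 CPM in KD DMSO libraries.

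Other genes of the pathway were taken from 5 lists. The 21 late cornified envelope (Lce) genes lie beside the Sprr genes and code for precursors added late. Their summed counts were 3.5 and 5 in NS DMSO libraries, 382 and 201.5 in KD DMSO libraries, 0 and 2.5 in NS Dox-4OHT libraries, and 176.5 and 127.5 in KD Dox-4OHT libraries. In knockdown libraries 16 to 18 of the 21 genes had counts and in NS libraries 0 to 2. Of the 6 tested, 6 rose on knockdown in each treatment (30.9% and 30.5% of all genes), and 5 fell with Dox-4OHT in knockdown cells (16.6% of all genes). All 6 had at most 3 counts in any NS library and passed the filter through the knockdown libraries. Their direction on knockdown was thus fixed by the filter, and the share of all genes is no measure for it. None was called with Dox-4OHT in NS cells, where counts were near 0.

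Of 8 transglutaminases and peptidylarginine deiminases, which cross-link and citrullinate envelope proteins, 6 were tested. On knockdown 3 rose and 1 fell under DMSO (30.9% and 31.0% of all genes), and 4 rose and 0 fell under Dox-4OHT (30.5% and 29.7%). Some that rose, such as Padi4 (at most 0.463 CPM in any NS library), passed the filter through the knockdown libraries. Such genes could hardly be called lower, so these counts of rises are partly set by the filter. Tgm1, the main transglutaminase of the envelope, was at 1.55 and 1.71 CPM in NS DMSO libraries, 6.87 and 6.75 CPM in KD DMSO libraries, 1.31 and 2.05 CPM in NS Dox-4OHT libraries, and 8.86 and 11.1 CPM in KD Dox-4OHT libraries. It rose on knockdown by 2.06 ± 0.24 under DMSO (edgeR adjusted p = 6.00e-09) and by 2.54 ± 0.24 under Dox-4OHT (edgeR adjusted p = 3.36e-11) on the log2 scale. Padi3, a deiminase whose substrates include trichohyalin, rose by 1.85 ± 0.06 (edgeR adjusted p = 9.61e-21) and 1.51 ± 0.05 (edgeR adjusted p = 2.77e-19). Both enzymes also rose with Dox-4OHT in knockdown cells, as did 4 of the 6 in all, against 19.5% of all genes. The Tgm1 call with Dox-4OHT was lost with DESeq2 (adjusted p = 0.168) and without knockdown Dox-4OHT replicate 2 (edgeR adjusted p = 0.128).

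Of 20 transcription factors of epidermal differentiation 9 rose and 6 fell on knockdown under DMSO, and 13 rose and 1 fell under Dox-4OHT. Against 30.9% and 31.0% of all genes, the count of lower calls under DMSO was near the background. Under Dox-4OHT the shares over all genes were 30.5% and 29.7%. Grhl3, needed for the skin barrier, was at 1.87 and 2.27 CPM in NS DMSO libraries, 13.4 and 12.2 CPM in KD DMSO libraries, 5.94 and 6.01 CPM in NS Dox-4OHT libraries, and 35.6 and 36.3 CPM in KD Dox-4OHT libraries. It rose on knockdown by 2.63 ± 0.19 (edgeR adjusted p = 8.63e-14) and 2.59 ± 0.12 (edgeR adjusted p = 2.55e-17), and with Dox-4OHT by 1.53 ± 0.20 in NS cells (edgeR adjusted p = 2.83e-07) and 1.49 ± 0.10 in knockdown cells (edgeR adjusted p = 7.64e-13), on the log2 scale. Its interaction of −0.05 ± 0.23 was not called (edgeR adjusted p = 0.885). Ovol1 was not called on knockdown under DMSO (0.14 ± 0.09, edgeR adjusted p = 0.169) and rose by 1.51 ± 0.09 under Dox-4OHT (edgeR adjusted p = 4.41e-14).

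Of 15 suprabasal keratins and adhesion genes 13 were tested. On knockdown 6 rose and 2 fell under DMSO, and 10 rose and 1 fell under Dox-4OHT, against 30.9% and 31.0%, and 30.5% and 29.7%, of all genes. Cldn4, a tight junction claudin, was at 3.98 and 5.12 CPM in NS DMSO libraries, 40.3 and 39.0 CPM in KD DMSO libraries, 6.79 and 8.35 CPM in NS Dox-4OHT libraries, and 266 and 266 CPM in KD Dox-4OHT libraries. With Dox-4OHT it rose by 2.75 ± 0.06 in knockdown cells (edgeR adjusted p = 2.61e-24) and by 0.75 ± 0.15 in NS cells (edgeR adjusted p = 1.95e-04), and the 2 responses differed (interaction, edgeR adjusted p = 5.67e-10). Krt1 and Krt10, the keratins of the suprabasal layers, stayed low: mean Krt1 was between 0 and 1.52 CPM over the 4 groups and mean Krt10 between 4.30 and 8.52 CPM. Krt1 had no call in either knockdown comparison (edgeR adjusted p = 0.484 and 0.577). Krt10 was called higher on knockdown under DMSO by 0.49 ± 0.16 (edgeR adjusted p = 0.00904) and lower under Dox-4OHT, at −0.49 ± 0.19 (edgeR adjusted p = 0.0291), on the log2 scale. The difference of its Dox-4OHT responses was −0.98 ± 0.25 (interaction, edgeR adjusted p = 0.00250). None of these 3 calls of Krt10 held with DESeq2 (adjusted p = 0.119, 0.186 and 0.0524). The first was also lost without NS DMSO replicate 2 (edgeR adjusted p = 0.140) or knockdown DMSO replicate 1 (0.105), and the second without replicate 1 of NS Dox-4OHT (0.154) or of knockdown Dox-4OHT (0.221). Both were picked out after their values were seen. Of 15 genes of the lipid barrier 14 were tested, of which 7 rose and 5 fell on knockdown under DMSO and 10 rose and 2 fell under Dox-4OHT, and the 5 that fell are near the share over all genes of 31.0% (30.9% were higher under DMSO, and 30.5% higher and 29.7% lower under Dox-4OHT). Among the genes that rose in the lists of transcription factors, suprabasal genes and the lipid barrier, some were scarce in NS libraries. They passed the filter through the knockdown libraries and could hardly be called lower. The counts of rises in these lists are thus partly set by the filter.

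Per kilobase of deposited gene length the order of the members differed between the groups. In NS DMSO libraries the highest were Dmkn at 65.0, Spink5 at 45.1, Lypd3 at 43.2 and Sbsn at 38.5 CPM per kilobase. In KD DMSO libraries they were Sprr1b at 99.1, Lypd3 at 53.4, Asprv1 at 52.9 and Sprr1a at 51.4 CPM per kilobase. The latter 3 are within the spread of their libraries. In NS Dox-4OHT libraries Lypd3 at 24.5, Evpl at 21.3 and Spink5 at 20.7 CPM per kilobase led, and in KD Dox-4OHT libraries Sprr1b at 232, Lypd3 at 62.8, Evpl at 44.6 and Sprr1a at 40.8 CPM per kilobase. A small proline-rich gene thus headed the list in both knockdown groups and in neither NS group.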

How the data were processed

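RNA of ASZ001 cells was extracted with RNeasy columns, made into TruSeq libraries and read on an Illumina HiSeq, per the labels. The authors deposited 1 table of estimated counts (expected counts) per gene, not normalized, made with TopHat and HOMER on mm9, per the submitters' processing notes, which also name DESeq2. Not given in the sources used here are tool versions, the strand setting and how reads matching more than 1 gene were handled. The deposited table also gives a gene length in bases, used for levels per kilobase.

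Values were multiples of 0.5 and were rounded to whole numbers, whereas the design had assumed whole counts. Library totals ran from 12724604.5 to 16233379. The test was edgeR's (version 4.0.16, R 4.3.3): filterByExpr kept 12538 genes, TMM scaled the libraries, and a robust quasi-likelihood fit ran in 1 model of 4 group means over 8 libraries (4 residual degrees of freedom) on 6 comparisons, two-sided. A gene was called where its p, adjusted by Benjamini-Hochberg over these genes, was under 0.05. The test was checked on simulated data. Folds against 0 counts use a floor of 3 counts over the group; with 1 to 3 counts the ratio has a 95% interval from the exact binomial interval, and both cover counting error only.

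Values in every library are given for members that were called with a log2 change of at least 1 in 1 of the first 4 comparisons, or called in the interaction, and that reached 1 CPM in a group. From each further list up to 3 genes with the smallest p may be named. Casp14, Sprr2a1 and Sprr2a2, members under 1 CPM or without a call, and the untested members with values were added to these after their values were seen. The members and lists were chosen with earlier results of these data known. Alternatives were DESeq2 1.42.0, other scaling, other filters, fewer libraries, a replicate block, no robust estimation and no Rn45s. Leaving out the Sprr2a2 row was chosen after seeing the data. Promoters are RefSeq's of GRCm38.p6, and shared 50-base stretches are of GENCODE M21 transcripts.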

Additional observations from a re-analysis of the deposited data

Results flagged for a closer look

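For 11 of the 28 tested members the response to Dox-4OHT differed between knockdown and NS cells by a test of the interaction (edgeR's quasi-likelihood test, Benjamini-Hochberg). Of these, 9 were higher and 2 lower, against 20.2% and 18.0% of all genes, so the total called is near the background. The log2 difference, knockdown minus NS response, was 2.50 for Sbsn (adjusted p = 3.13e-07), 1.40 for Tchh (9.19e-11), 1.36 for Dmkn (2.13e-10), 1.28 for Spink5 (1.06e-14) and 1.05 for Lypd3 (1.37e-11). It was 0.83 for Klk8 (adjusted p = 0.0125), 0.54 for Sprr1b (0.0187), 0.39 for Ppl (5.80e-06) and 0.33 for Evpl (5.62e-05). It was −1.62 for Sprr1a (adjusted p = 4.44e-04) and −0.92 for Lor (0.00617). The calls of Sprr1b and Klk8 were lost with DESeq2 (adjusted p = 0.0528 and 0.143). For Lor the difference was −0.66 without NS Dox-4OHT replicate 1. Sprr1a and Sprr1b, which lie in the same cluster on chromosome 3 and code for proteins of 1 family, differed in sign. What lies behind these differences was not tested.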

How the results depend on the processing

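The depth limits the members with few counts, above all Casp14, Calml3, Scel, Klk7 and Klk10, whose lost calls stand beside their values. Of the counts of members called, these moved by over 1.5 times. On knockdown under DMSO 4 members were lower with DESeq2. In that setting 5681 of 14003 genes were called in either direction, against 3877 higher and 3886 lower of 12538 with edgeR. With Dox-4OHT in NS cells 4 were higher with only the compared libraries and 4 without robust estimation. Over all genes 5181 of 12203 and 5205 of 12538 were called in these settings, in either direction. The members added in both settings were the Sprr2a rows, which stand for 1 measurement. That count also moved when a library was left out. In knockdown cells 3 were higher with DESeq2. There 2481 of 12359 genes were called in either direction, against 2446 higher and 2085 lower of 12538 with edgeR. Fewer calls with DESeq2 are thus not particular to the members. On knockdown under Dox-4OHT 0 to 2 were lower when a library was left out, the 2 being both Sprr2a rows without knockdown Dox-4OHT replicate 1. In the interaction 1 to 4 were lower when a library was left out. The summed Sprr interaction ran from −0.47 to −0.17 over the libraries left out. Directions turned in values without a call when a library was left out: Sprr2a1 ran from −1.70 to 1.29 on knockdown under Dox-4OHT and from −0.55 to 2.50 with Dox-4OHT in knockdown cells (both lowest without knockdown Dox-4OHT replicate 1), and Dmkn from −0.12 to 0.03 on knockdown under Dox-4OHT. With Dox-4OHT in NS cells Lor ran from −0.29 to 0.22, and was at 0.0031 with library totals, and Ivl ran from −0.59 to 1.15. The cause was not tested. Replicate numbers did not pair the samples (correlations of deviations from −0.023 to 0.033). With the replicate block, 19 members were higher and 7 lower on knockdown under DMSO, 22 and 0 under Dox-4OHT, 2 and 11 with Dox-4OHT in NS cells, 6 and 12 in knockdown cells and 10 and 2 in the interaction. Over all genes 7777, 7554, 5319, 4559 and 4814 of 12538 were called in the same order, in either direction. Scaling with RLE factors and leaving out the Sprr2a2 row turned no direction and ended no call among the values recomputed.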
